A study of Rattus norvegicus with 8 samples.

Results

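The expression of 6 cell-cycle genes was described in rat tumours given rapamycin, alone or with an inhibitor of monoamine oxidase. The genes were named as rows of the deposited table, by a rule that uses no measured value, but with earlier results of these data known. They are Ccnd1 (ENSRNOG00000020918), Pcna (ENSRNOG00000021264), Cdk1 (ENSRNOG00000000632), Ccnb1 (ENSRNOG00000058539), Top2a (ENSRNOG00000053047) and Mki67 (ENSRNOG00000028137), 6 of the 23918 genes listed. The symbols were given with the rows, since neither the deposited table nor the reference pairs IDs with symbols. RNA was sequenced from 8 subcutaneous tumours of ELT3-V3 cells, a rat uterine leiomyoma line, in female NOD-scid mice aged 6 weeks. ELT3 cells lack the tumour suppressor tuberin, which normally restrains the kinase complex mTORC1, and are a model of lymphangioleiomyomatosis. Mice were randomized once tumours measured 150 to 200 mm3, and there were 4 groups with 2 tumours each.

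The vehicle group received 0.2% carboxymethylcellulose with 0.25% Tween-80. The rapamycin group received 0.25 mg/kg per day. In the clorgyline combination, rapamycin was joined by daily clorgyline at 10 mg/kg, and in the rasagiline combination by daily rasagiline at 1 mg/kg. For the combinations the labels leave the rapamycin dose unsaid, and the sources used here do not give the length of treatment. Rapamycin inhibits mTORC1, and clorgyline and rasagiline inhibit monoamine oxidase. All tumours came from 1 cell line in a host without mature T and B cells, and the labels do not say that each tumour came from its own mouse. The p-values for differences between groups therefore rest on the spread between these tumours only.

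In the cell cycle, cyclin D1 (Ccnd1) binds kinases that start the passage from G1 into S phase, in which DNA is replicated. The sliding clamp encoded by Pcna holds DNA polymerase on its template. Cyclin B1 (Ccnb1) then binds and activates the kinase Cdk1 to drive entry into mitosis, DNA topoisomerase II alpha (Top2a) untangles the copied chromosomes, and Ki-67 (Mki67) coats mitotic chromosomes and is a standard marker of dividing cells. Signals through mTORC1 promote cell growth and progress through G1, and rapamycin is known for slowing both. In RNA from whole tumours, fewer cells of a type and less RNA per cell cannot be told apart.

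Promoters of genes used in mitosis often carry CCAAT boxes, bound by the factor NF-Y, and a cell cycle genes homology region (CHR), bound by the repressor complex DREAM. Promoters of replication genes often carry E2F sites. RefSeq windows on build GRCr8, from 250 bases before to 50 bases after a gene start, were found by symbol for 5 of the 6 genes (Mki67, Top2a, Cdk1, Ccnb1 and Pcna). The windows of 3 genes are shown, chosen from the measured levels. Cdk1 and Pcna were above both vehicle tumours in all 6 rapamycin-containing tumours. Ccnb1, the binding partner of Cdk1, was in none of these above the higher vehicle tumour, but a rapamycin tumour lay between the vehicle tumours. Capitals mark matches on either strand to TTTGAA or TTCGAA (CHR), to CCAAT, and to TTTCGCGC or TTTGGCGC (E2F). They are the windows of Cdk1 (chr20:19265043-19265342, plus strand), Ccnb1 (chr2:33655176-33655475, minus strand) and Pcna (chr3:139955771-139956070, minus strand), each written from 5′ to 3′ on the strand of the gene.
Cdk1: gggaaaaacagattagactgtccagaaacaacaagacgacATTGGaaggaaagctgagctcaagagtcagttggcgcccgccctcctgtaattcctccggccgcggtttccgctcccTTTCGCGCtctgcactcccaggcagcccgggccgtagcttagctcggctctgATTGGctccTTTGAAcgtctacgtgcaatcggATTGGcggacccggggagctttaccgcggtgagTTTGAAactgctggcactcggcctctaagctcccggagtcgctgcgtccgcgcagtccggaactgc
Ccnb1: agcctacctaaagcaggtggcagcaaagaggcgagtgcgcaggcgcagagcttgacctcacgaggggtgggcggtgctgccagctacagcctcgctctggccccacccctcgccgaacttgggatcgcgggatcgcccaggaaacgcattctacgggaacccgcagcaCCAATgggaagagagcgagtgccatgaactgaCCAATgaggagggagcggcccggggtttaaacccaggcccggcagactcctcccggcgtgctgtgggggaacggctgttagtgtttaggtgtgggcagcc
Pcna: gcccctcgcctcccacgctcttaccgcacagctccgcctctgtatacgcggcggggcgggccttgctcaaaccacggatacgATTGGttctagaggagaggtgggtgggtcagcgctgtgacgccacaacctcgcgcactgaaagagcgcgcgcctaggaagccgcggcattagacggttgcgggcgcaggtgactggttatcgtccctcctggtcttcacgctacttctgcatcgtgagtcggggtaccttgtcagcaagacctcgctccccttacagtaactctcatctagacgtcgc

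The Cdk1 window held 2 matches to TTTGAA, which begin 72 and 16 bases before the start, 3 to CCAAT and 1 to TTTCGCGC. The Ccnb1 window held 2 matches to CCAAT, at 82 and 50 bases before the start, and none to the other sequences searched. Other forms of these motifs were not searched, so a window without a match may still hold one. That of Pcna held 1 match to CCAAT. In the windows not printed, Mki67 had 2 matches to TTTGAA and 4 to CCAAT, and Top2a had 1 to TTTGAA, 1 to TTCGAA and 4 to CCAAT. In Mki67, 1 of each overlapped. Of 33469 windows of the same length, 18.3% held TTTGAA, 1.69% held TTCGAA, 37.5% held CCAAT, 0.326% held TTTCGCGC and 0.493% held TTTGGCGC. At least 2 matches to CCAAT were found in 11.2% of windows and in 4 of the 5 genes. A match describes letters only and is not evidence of binding.

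All 6 genes were well expressed in every tumour. Expression is given as TPM, a transcript abundance corrected for gene length and expressed as a share of a library total of 1000000. Levels can be compared between genes only as far as that correction and the assignment of reads to genes hold, which could not be checked. The lowest value, 41.0 TPM for Mki67 in a clorgyline combination tumour, was above 85.2% of the genes listed in that library, and the highest, 311 TPM for Ccnd1 in a rapamycin tumour, was above 98.0%. TPM keeps no sequencing depth, so the depth behind these values is unknown. In the vehicle tumours the order by mean level was Pcna, Top2a, Cdk1, Ccnd1, Ccnb1 and Mki67, in which Ccnd1 and Ccnb1 overlapped. In each of the other 3 groups Ccnd1 was second to Pcna, followed by Cdk1, Top2a, Ccnb1 and Mki67. Pcna and Ccnd1 overlapped in the rapamycin group, Ccnd1 and Cdk1 in the clorgyline combination, and Cdk1 and Top2a in all 3.

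**Figure D1:**
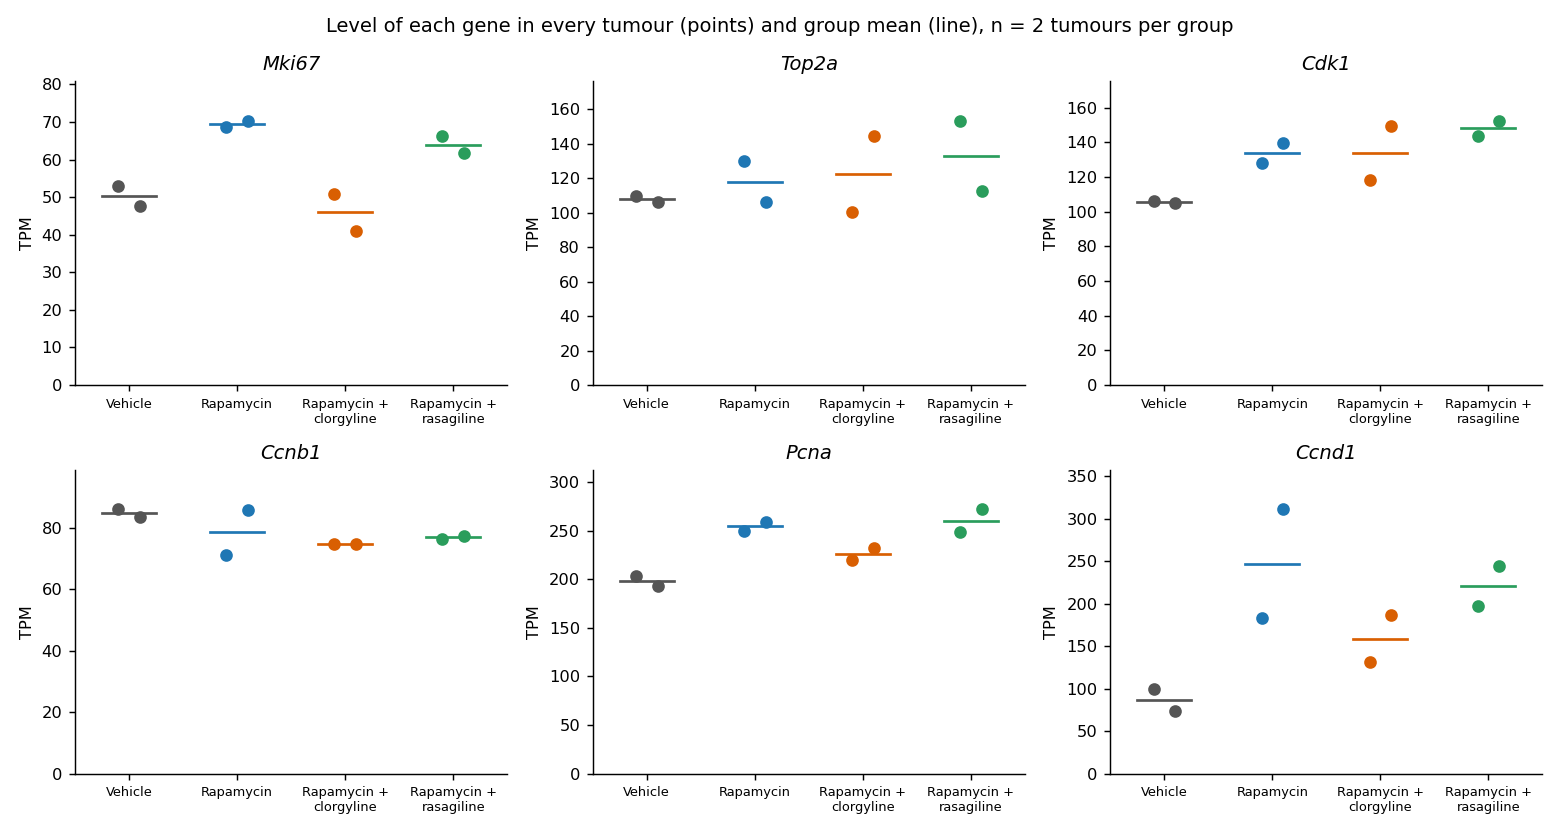
TPM (y axes, from 0) of each of the 6 genes in all 8 tumours, by treatment group. Points are tumours and lines are group means of 2 tumours. All 6 rapamycin-containing tumours lie above both vehicle tumours for Ccnd1, Pcna and Cdk1, as for 16.2% of all genes tested. For Ccnb1 none of them lies above the higher vehicle tumour, but a rapamycin tumour at 85.9 TPM lies between the vehicle tumours.

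Ccnd1, the cyclin of G1 entry, showed the largest difference of the 6 genes. It stood at 100.3 and 73.3 TPM in the vehicle tumours and at 183 and 311 TPM after rapamycin. With clorgyline added it stood at 131 and 186 TPM, and with rasagiline at 198 and 245 TPM. Every rapamycin-containing tumour was above both vehicle tumours, as in 16.2% of all genes tested, and the 2 rapamycin tumours differed from each other by 1.70-fold. Group means were 86.8 ± 19.1 TPM for vehicle, 247 ± 90.4 for rapamycin, 159 ± 38.8 for the clorgyline combination and 221 ± 33.1 for the rasagiline combination (SD, n = 2 each).

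The 3 rapamycin-containing groups together had a mean of 2.41 times the vehicle level of Ccnd1. On the log2(TPM + 1) scale the difference was 1.23, with a 95% interval from 0.65 to 1.81, and it missed the threshold of 0.05 (limma, Benjamini-Hochberg adjusted p = 0.0525). Ranked by this difference, Ccnd1 was number 313 from the top of the 13686 genes tested. The difference from vehicle was 1.47 for rapamycin alone (limma adjusted p = 0.0800), 0.86 for the clorgyline combination (limma adjusted p = 0.297) and 1.35 for the rasagiline combination (limma adjusted p = 0.0739). The call depended on the settings. For the mean of the 3 groups the limma adjusted p ranged from 0.0135 to 0.348 over 15 alternatives and was below 0.05 in 5 of them, while the log2 difference stayed between 1.00 and 1.45. Without control replicate 1 or 2 the adjusted p was 0.290 or 0.348, where 0 of all genes passed. The call did not always follow the share of all genes that passed. Under median rescaling this share was 2.71%, against 2.44% as reported, and Ccnd1 did not pass (limma adjusted p = 0.0622). It passed without rapamycin replicate 1 (adjusted p = 0.0135) or rapamycin replicate 2 (0.0255), under quantile normalization (0.0480), under a filter at 5 TPM (0.0444) and with array weights (0.0207). In these settings the share of all genes that passed was 9.68%, 7.68%, 2.76%, 3.86% and 7.91%, in that order, against 2.44% as reported. Rapamycin replicate 2 was also the library that correlated least with the others (r = 0.927 to 0.956 across genes), and without it the log2 difference for the mean was 1.10.

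Pcna, the replication clamp, was the most abundant of the 6 genes in every tumour but rapamycin replicate 2 and varied little between tumours of a group. Its levels were 203 and 193 TPM with vehicle, 249.7 and 259 TPM with rapamycin, 219.5 and 232 TPM with clorgyline added, and 248 and 272 TPM with rasagiline added. No rapamycin-containing tumour overlapped the vehicle tumours, and the mean level of the 3 groups was 1.24 times that of vehicle. The log2 difference for the mean of the 3 groups was 0.31, with a 95% interval from 0.05 to 0.57, and did not pass the test (limma adjusted p = 0.164). Its residual spread between tumours of a group was among the smallest of all genes tested, at the 1.07 percentile. The limma test did not use this spread alone but moved it toward that of other genes, from an SD of 0.062 to 0.134 (log2 scale). For Ccnd1 the SD moved the other way, from 0.374 to 0.303.

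Cdk1, the mitotic kinase, stood at 106 and 105 TPM in the vehicle tumours. It stood at 128 and 140 TPM after rapamycin, at 118 and 149 TPM in the clorgyline combination and at 144 and 153 TPM in the rasagiline combination. Again all 6 rapamycin-containing tumours were above both vehicle tumours. The mean of the 3 groups was 1.31 times the vehicle level (log2 difference 0.39, 95% interval 0.08 to 0.69), which did not pass the test (limma adjusted p = 0.148).

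Ccnb1, the cyclin that activates Cdk1, was not above the higher vehicle tumour in any rapamycin-containing tumour. It stood at 86.0 and 83.5 TPM with vehicle and at 71.3 and 85.9 TPM with rapamycin. It was 74.8 TPM in both clorgyline combination tumours, and 76.5 and 77.3 TPM in those given rasagiline. Both combinations lay below both vehicle tumours, while 1 rapamycin tumour, at 85.9 TPM, fell within the range of the vehicle tumours. By the criterion used for the other genes, Ccnb1 therefore overlapped between rapamycin-containing and vehicle tumours. The share of all genes with no such tumour above the higher vehicle tumour was not computed. The log2 difference for the mean of the 3 groups was -0.14, with a 95% interval from -0.43 to 0.14 (limma adjusted p = 0.521).

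Top2a, the enzyme that separates copied chromosomes, differed more between the tumours of each combination than group means differed from vehicle. The vehicle tumours held 110 and 106 TPM, the rapamycin tumours 130 and 106 TPM, the clorgyline combination 101 and 145 TPM, and the rasagiline combination 154 and 113 TPM. Each combination's tumours differed from each other by 1.44-fold and 1.36-fold in that order, and by 1.03-fold in the vehicle group. The log2 difference for the mean of the 3 groups was 0.19, with a 95% interval from -0.26 to 0.63 (limma adjusted p = 0.602).

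Mki67, the marker of dividing cells, was the least abundant of the 6 genes in every tumour. It stood at 52.9 and 47.7 TPM with vehicle, 68.6 and 70.3 TPM with rapamycin, 50.8 and 41.0 TPM in the clorgyline combination, and 66.2 and 61.7 TPM in the rasagiline combination. The rapamycin and rasagiline groups lay above both vehicle tumours, and the clorgyline combination overlapped them. The log2 difference from vehicle was 0.46 for rapamycin (95% interval 0.08 to 0.84, limma adjusted p = 0.202), -0.13 for the clorgyline combination (-0.52 to 0.25, limma adjusted p = 0.761) and 0.34 for the rasagiline combination (-0.04 to 0.72, limma adjusted p = 0.303).

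**Figure D2:**
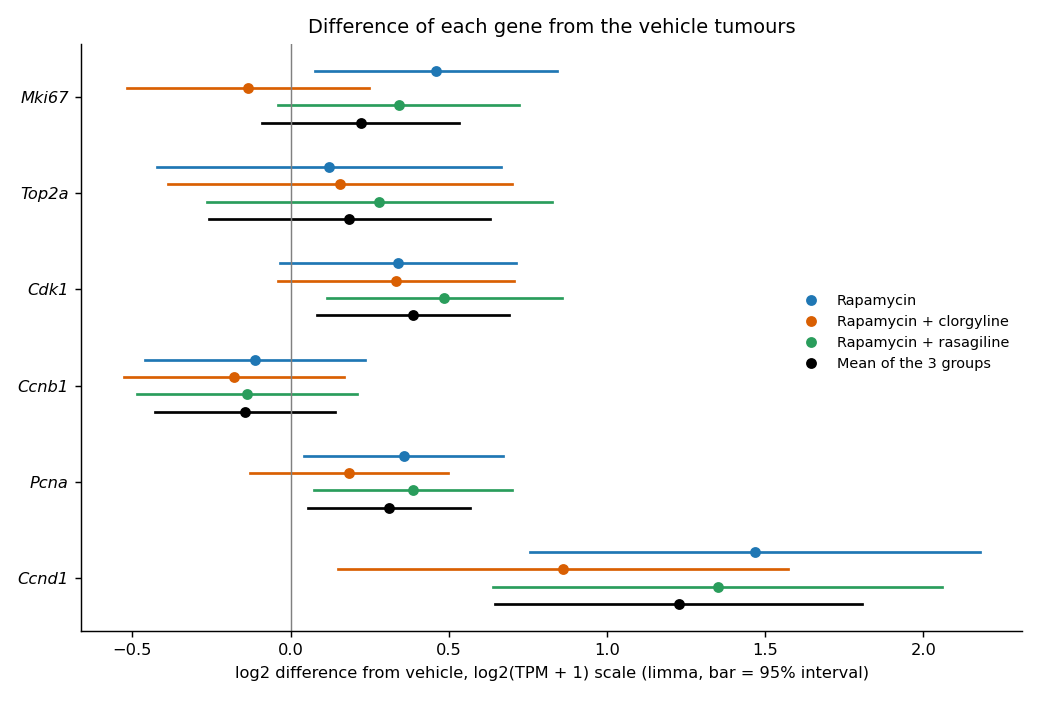
Difference of each gene from the vehicle tumours on the log2(TPM + 1) scale (x axis), for each rapamycin-containing group and their mean. Points are limma estimates and bars are 95% intervals. For the mean of the 3 groups the intervals of Ccnd1, Pcna and Cdk1 lie above 0, unadjusted for the number of genes, and those of the other genes include 0.

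The first comparison asked how cell-cycle genes differed after rapamycin alone. Of the 6 genes, 5 were above vehicle on the log2 scale, as were 58.1% of all genes, and Ccnb1 was below it. 0 passed the limma test with adjustment over all 13686 genes, of which 0.643% passed. At an unadjusted p below 0.05 there were 3 of 6 (Ccnd1, Pcna and Mki67), against 18.7% of all genes. The 2 rapamycin tumours were both above both vehicle tumours in 4 of 6 genes, against 31.3% of all genes, and below in 0 of 6, against 17.6%. The median log2 difference of the 6 genes was 0.35, beside 0.09 for all genes tested.

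For the clorgyline combination against vehicle, 4 genes were above vehicle, against 57.2% of all genes, and 2 (Ccnb1 and Mki67) below it. 0 passed the limma test, against 0.0146% of all genes. At an unadjusted p below 0.05 there was 1 of 6, Ccnd1, against 13.5%. Both tumours were above both vehicle tumours in 3 of 6 genes (Ccnd1, Pcna and Cdk1), against 29.3% of all genes, and below them in 1 of 6 (Ccnb1), against 19.8%. The median log2 difference was 0.17 for the 6 genes and 0.07 for all genes.

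For the rasagiline combination against vehicle, 5 genes were above vehicle, against 64.3% of all genes, and Ccnb1 was below it. 0 passed the limma test, against 1.57% of all genes. At an unadjusted p below 0.05 there were 3 of 6 (Ccnd1, Pcna and Cdk1), against 19.5%. None of the 6 genes overlapped between these groups. The tumours given rasagiline were higher in 5 genes, against 41% of all genes, and lower in 1, against 18.3%. The median log2 difference was 0.36 for the 6 genes and 0.15 for all genes.

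In the mean of the 3 rapamycin-containing groups, 5 of 6 genes were above vehicle, as were 61% of all genes tested. The limma test was passed by 0 of 6 genes, against 2.44% of all genes, and an unadjusted p below 0.05 was reached by 3 of 6 (Ccnd1, Cdk1 and Pcna), against 21.9%. The 6 tumours lay above both vehicle tumours in these same 3 genes, against 16.2% of all genes, and below both in 0 of 6, against 8.91%. Relative to the median of all genes, which stood 0.10 above vehicle on the log2 scale, the differences were 1.12 for Ccnd1, 0.28 for Cdk1, 0.20 for Pcna, 0.12 for Mki67, 0.08 for Top2a and -0.25 for Ccnb1. Other than Ccnd1, the 6 genes lay between the 25.9 and the 76.7 percentile of all log2 differences. In these comparisons the same 2 vehicle tumours served as the reference, so the comparisons are not independent of each other.

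**Figure D3:**
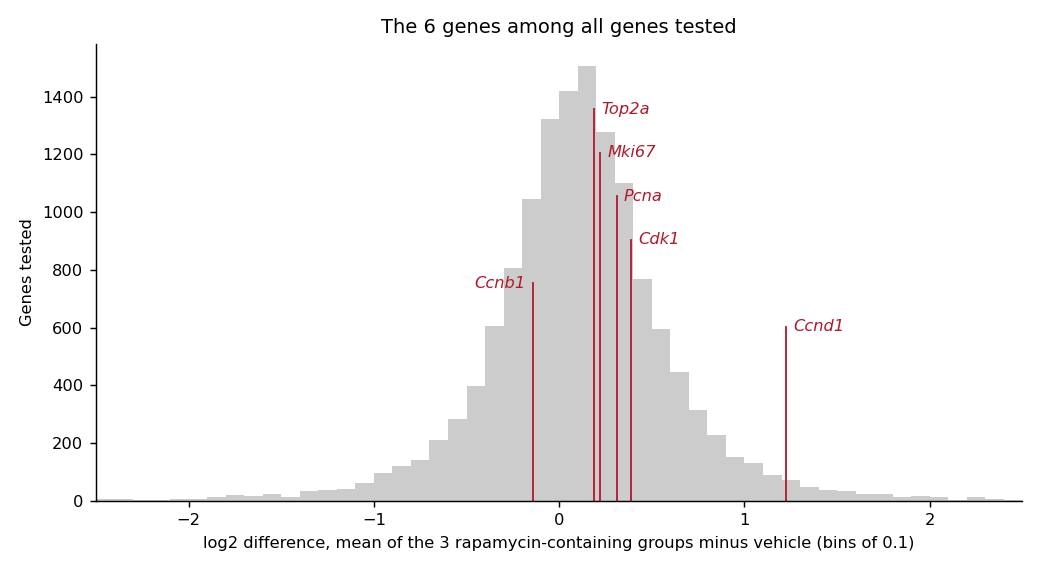
Number of genes tested (y axis) by their log2 difference between the mean of the 3 rapamycin-containing groups and vehicle (x axis, log2(TPM + 1) scale), in grey, with the 6 genes as red lines whose heights carry no meaning. Ccnd1 stands at 1.23 in the upper tail and the other 5 lie between -0.14 and 0.39. The axis leaves out 33 genes beyond 2.5 in either direction.

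The intervals set limits on a fall in these genes under rapamycin. For the mean of the 3 groups, the lowest log2 difference within the 95% interval was -0.09 for Mki67, -0.26 for Top2a and -0.43 for Ccnb1, and it was above 0 for Ccnd1, Pcna and Cdk1. For rapamycin alone the lowest were 0.08 for Mki67, -0.42 for Top2a, -0.03 for Cdk1 and -0.46 for Ccnb1. In the clorgyline combination they were -0.52 for Mki67, -0.39 for Top2a, -0.04 for Cdk1, -0.53 for Ccnb1 and -0.13 for Pcna. The limits for the mean are therefore not those of each group. These limits use the spread shared by all 4 groups, moved by limma toward that of other genes. They are relative to total RNA, since TPM is a share of each library, and hold for TPM as deposited. Under median rescaling the log2 difference for the mean was smaller, at 0.20 for Pcna, 0.28 for Cdk1 and 0.11 for Mki67. Under quantile normalization it was 0.37, 0.41 and 0.20 in that order. Limits under these scalings are not given here. Data were also simulated from these libraries. For rapamycin against vehicle, the fit recovered 0.448% of genes changed by 0.5 on the log2 scale, 21.8% of those changed by 1 and 87.3% of those changed by 2. For the mean of the 3 groups these rates were 2.09%, 46.3% and 95.9%. The changed genes were drawn from genes at large, each with its own moderated spread, so the rates are not those of the 6 genes. A miss of the threshold therefore does not show that these genes did not differ.

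The addition of each inhibitor was then compared with rapamycin alone, using the same 2 rapamycin tumours for both. With clorgyline, 0 of 6 genes passed the limma test, as did 0% of all genes, and 1 of 6 had an unadjusted p below 0.05, against 7.61% of all genes. That gene was Mki67, at 45.9 ± 6.95 TPM against 69.5 ± 1.23 TPM with rapamycin alone (SD, n = 2 each). The log2 difference was -0.59, with a 95% interval from -0.98 to -0.21 (limma adjusted p = 0.573), and its rank was at the 5.32 percentile of all genes. Pcna was also lower in both clorgyline tumours than in both rapamycin tumours, with a log2 difference of -0.17 and an interval from -0.49 to 0.14. Groups did not overlap, with the clorgyline tumours lower, in these 2 of 6 genes, against 20.8% of all genes, and with them higher in 0 of 6, against 13.6%. The Ccnd1 difference was -0.61, with an interval from -1.32 to 0.10. For Top2a, Cdk1 and Ccnb1 the differences were 0.04, -0.01 and -0.07, with intervals from -0.51 to 0.58, -0.38 to 0.37 and -0.41 to 0.28.

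With rasagiline, 0 of 6 genes passed the limma test, against 0.0146% of all genes, and 0 of 6 reached an unadjusted p below 0.05, against 5.81%. The differences from rapamycin alone were -0.12 for Mki67 (95% interval -0.50 to 0.26), 0.16 for Top2a (-0.38 to 0.70), 0.15 for Cdk1 (-0.23 to 0.52), -0.03 for Ccnb1 (-0.37 to 0.32), 0.03 for Pcna (-0.28 to 0.34) and -0.12 for Ccnd1 (-0.83 to 0.59). Every interval includes 0, and those of Mki67, Cdk1, Ccnb1 and Pcna are the narrower ones. Both tumours given rasagiline were above both rapamycin tumours in 1 of 6 genes, Cdk1, against 19% of all genes, and below them in 1 of 6, Mki67, against 12.1%. The clorgyline and rasagiline doses were not matched, so the combinations were not tested against each other.

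Ratios within a library do not depend on how libraries are scaled to each other, and 3 were computed after the levels had been seen, so they have no test. The TPM ratio of Cdk1 to its partner Ccnb1 was 1.23 and 1.26 in the vehicle tumours. It was 1.80 and 1.62 after rapamycin, 1.58 and 2.00 in the clorgyline combination, and 1.88 and 1.97 in the rasagiline combination. All 6 rapamycin-containing tumours were above both vehicle tumours. This separation follows from the levels of the 2 genes given above, which led to the choice of the pair, and is not a further result. On the log2(TPM + 1) scale the ratio was 0.53 higher in the mean of the 3 groups, and the SD between tumours of a group was 0.13. It stayed between 0.47 and 0.58 under the alternatives tried, including each library left out in turn.

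The ratio of Ccnd1 to Pcna sets the G1 cyclin against the replication clamp. It was 0.493 and 0.379 with vehicle, 0.735 and 1.20 with rapamycin, 0.599 and 0.804 with clorgyline added, and 0.797 and 0.901 with rasagiline added. All 6 rapamycin-containing tumours were above vehicle, by 0.92 on the log2 scale for the mean of the 3 groups, with an SD of 0.33. For this pair too the separation follows from the levels given above and is not a further result. The difference ranged from 0.73 without control replicate 2 to 1.10 without control replicate 1. The ratio of Mki67 to Pcna showed no such separation, at 0.260 and 0.247 with vehicle and between 0.177 and 0.275 in the other 6 tumours.

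**Figure D4:**
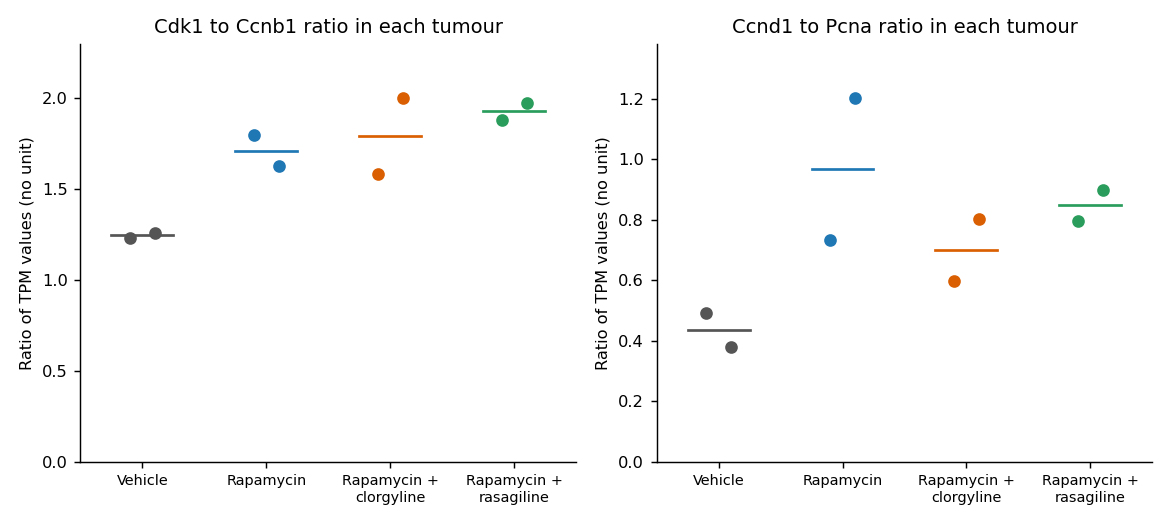
Ratio of the TPM of Cdk1 to that of Ccnb1 (left) and of Ccnd1 to Pcna (right) in each of the 8 tumours, by treatment group. Points are tumours and lines are group means of 2 tumours. In both panels the 2 vehicle tumours lie lowest, at 1.23 and 1.26 on the left and at 0.493 and 0.379 on the right. Both pairs were chosen after the levels had been seen.

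Covariation of the 6 genes across tumours was examined over all 15 pairs. In all 8 tumours, 3 pairs passed an exact two-sided permutation test of Pearson's r with Benjamini-Hochberg adjustment over the 15 pairs. These joined Pcna, Ccnd1 and Cdk1 with each other. The permutation took no account of the treatment groups. In these same 3 genes all 6 rapamycin-containing tumours lay above both vehicle tumours, so that difference between groups enters r and its p-value. For Pcna and Ccnd1, r was 0.95 (exact permutation p = 0.000422, adjusted p = 0.00632) and Spearman's rho was 0.90 (exact permutation p = 0.00456, adjusted p = 0.0685). For Cdk1 and Ccnd1, r was 0.88 (exact permutation p = 0.00377, adjusted p = 0.0272) and rho was 0.83 (exact permutation p = 0.0154, adjusted p = 0.115). For Cdk1 and Pcna, r was 0.88 (exact permutation p = 0.00543, adjusted p = 0.0272) and rho was 0.79 (exact permutation p = 0.0279, adjusted p = 0.140).

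For these 3 pairs the 2 tumours farthest from the median of Cdk1 or Pcna were the vehicle tumours. Among the 6 rapamycin-containing tumours r was 0.84 for Pcna and Ccnd1 (exact permutation p = 0.0472), 0.63 for Cdk1 and Ccnd1 (exact permutation p = 0.181) and 0.61 for Cdk1 and Pcna (exact permutation p = 0.201), each with an adjusted p of 0.604. With 6 tumours and 15 pairs, 0 pairs passed. The number of pairs that passed in 7 tumours was 0 without control replicate 1, without control replicate 2, and also 0 without clorgyline combination replicate 1. After median rescaling of the libraries 0 of 15 pairs passed in all 8 tumours. No pair of the 4 mitotic genes passed. Over 8 tumours r was 0.04 for Mki67 and Top2a (exact permutation p = 0.936), 0.28 for Mki67 and Cdk1 (p = 0.484), 0.55 for Top2a and Cdk1 (p = 0.160), -0.42 for Cdk1 and Ccnb1 (p = 0.290), -0.52 for Top2a and Ccnb1 (p = 0.194) and -0.002 for Mki67 and Ccnb1 (p = 0.996).

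**Figure D5:**
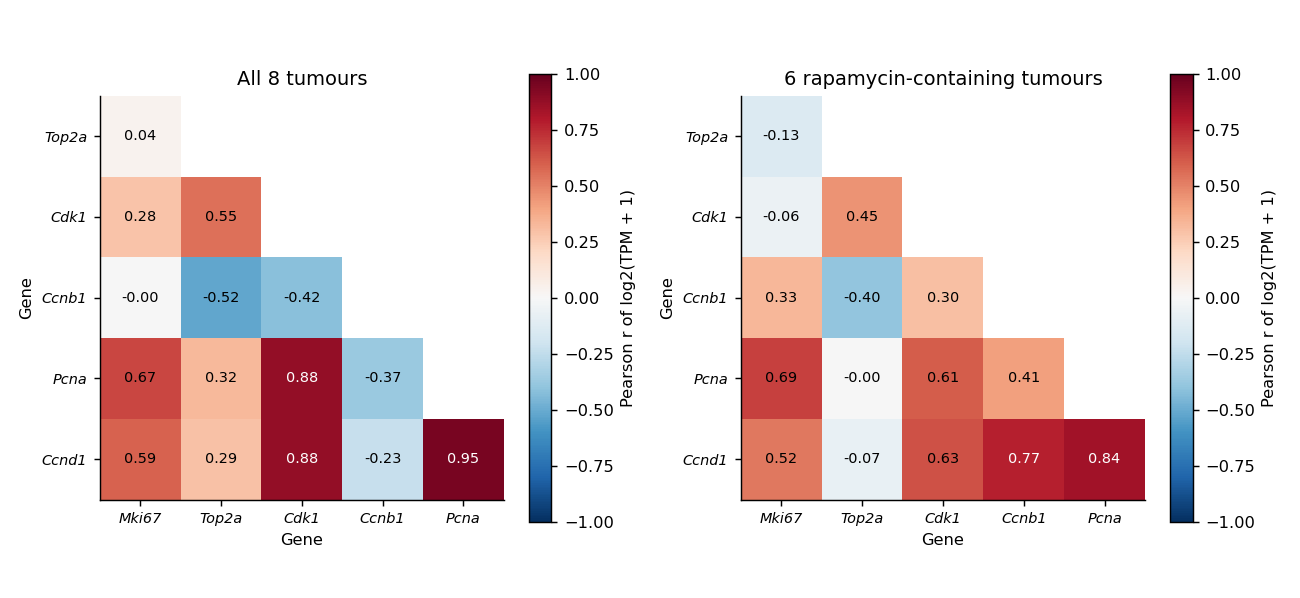
Pearson's r of log2(TPM + 1) between each pair of the 6 genes, over all 8 tumours (left) and over the 6 rapamycin-containing tumours (right). Colour and printed value give r. Pcna, Ccnd1 and Cdk1 correlate at 0.88 to 0.95 on the left and at 0.61 to 0.84 on the right.

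Genes were ranked by Pearson's r with the mean of the standardized levels of Mki67, Top2a, Cdk1 and Ccnb1, over 8 tumours and 10218 genes with a mean of at least 5 TPM. The 2 highest were ENSRNOG00000027332 (r = 0.995, from 24.6 to 36.1 TPM) and ENSRNOG00000002749 (r = 0.974, from 40.9 to 66.6 TPM), both highest in rasagiline combination replicate 1 and lowest in clorgyline combination replicate 1. The 2 lowest were ENSRNOG00000057127 (r = -0.912) and ENSRNOG00000025216 (r = -0.890). Between Mki67, Top2a, Cdk1 and Ccnb1 themselves r ran from -0.52 to 0.55, so their mean is an average of unlike patterns and not the level of a set. The genes named are the extremes of a ranking over few tumours and are given as a description.

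Other genes of the cell cycle were listed by symbol in 5 groups (replication, mitosis, D-type cyclins and their kinases, kinase inhibitors, and mTORC1 components), as were markers of smooth muscle and of 7 other cell types. No ID of the table could be paired with these symbols, so they were not analysed here, and a change in the mixture of cell types was not tested beside any of these results. Mouse RNA from the host that aligned to rat genes would be included in the values, and its share was not analysed here. RefSeq lists pseudogenes of Cdk1 (1), Pcna (3) and Mki67 (1), with which reads could be shared, so the values of these 3 genes carry that uncertainty.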

How the data were processed

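The authors deposited 1 table of TPM for 23918 Ensembl rat gene IDs, with 1 column per tumour, and all 8 columns matched a sample title. Each column sums to 1000000, so depth per sample is unknown and no counting interval was computed. Per the submitters' processing notes, STAR 2.4.0f1, SAMtools 0.1.18, bedtools, DESeq2 and build rn6 were used, without their roles. How TPM was computed, with which annotation, and how mouse reads were handled is not given in the sources used. TRIzol RNA went into TruSeq libraries, per the labels' protocols.

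Genes with at least 1 TPM in at least 2 libraries were tested (13686, including all 6 described). limma 3.58.1 in R 4.3.3 fitted 4 group means to log2(TPM + 1) of all 8 libraries, with 4 residual degrees of freedom and an intensity trend (prior degrees of freedom 3.37). Tests were two-sided with Benjamini-Hochberg adjustment over all genes, at 0.05. Fold changes on this scale understate those of low genes. The fit was tested on simulated data (10 runs, 200 changed genes of 13686, 6.75% of calls false for rapamycin against vehicle). Groups came from titles, and replicate numbers, given in accession order, pair nothing. The 6 genes and the lists were chosen with earlier results of these data known. The naming rule took the 6 genes, and the 2 IDs most and least like the mean of 4 of them. The lists by symbol could not be measured, because 0 of 47357 reference entries (GRCr8) carry an Ensembl ID. Alternatives were other pseudocounts (0.1 and 5 TPM), no filter or one at 5 TPM, quantile normalization, median rescaling, array weights, fitting the compared groups alone, and each library left out. Figures used matplotlib 3.10.9 in Python 3.11.15.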

Additional observations from a re-analysis of the deposited data

How the results depend on the processing

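Of 378 values for the 6 genes under alternatives in the 4 comparisons with vehicle, 4 changed sign and 10 passed the limma test, all 10 of them for Ccnd1. The number of the 6 genes that passed was 0 in each comparison as reported. It became 1 (Ccnd1) for the rasagiline combination against vehicle with array weights and in a fit of its 2 groups alone, and for the mean of the 3 groups under a filter at 5 TPM, quantile normalization and array weights. Calls also rose among all genes, to 10.3% and 6.97% for the rasagiline combination in those settings, against 1.57% as reported. Leaving out 1 library at a time gave 0 to 1 for rapamycin, the rasagiline combination and the mean of the 3 groups. It was 1 for rapamycin only without rapamycin replicate 1 (adjusted p = 0.0168) and for the others only without either rapamycin tumour. In those omissions 9.76% of all genes passed for rapamycin, 7.17% and 7.23% for the rasagiline combination and 9.68% and 7.68% for the mean. For the clorgyline combination against vehicle and both comparisons with rapamycin, it was 0 under every alternative run. The fit of only the groups compared gives no separate value for the mean of the 3 groups, which uses all groups.

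All 4 changes of sign against vehicle came from leaving out a library. With single libraries left out, the log2 difference of rapamycin from vehicle ran from -0.028 to 0.27 for Top2a and from -0.25 to 0.020 for Ccnb1, with the value of opposite sign without rapamycin replicate 1. That of the clorgyline combination ran from -0.29 to 0.017 for Mki67 and from -0.10 to 0.42 for Top2a, with the opposite sign without its replicate 2. Against rapamycin, 13 of 192 values changed sign. For the clorgyline combination Cdk1 was 0.031 under quantile normalization, 0.023 under median rescaling and -0.17 to 0.16 with libraries left out, where Top2a was -0.22 to 0.30 and Ccnb1 -0.20 to 0.068. For the rasagiline combination Pcna was -0.038 under median rescaling and -0.034 to 0.095 with libraries left out, where Top2a was -0.061 to 0.38, Ccnb1 -0.16 to 0.11 and Ccnd1 -0.50 to 0.26. The causes were not tested.

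The 3 correlated pairs became 0 after median rescaling and 0 among the 6 rapamycin-containing libraries, and leaving out 1 library at a time gave 0 to 4. They were 0 without control replicate 1, control replicate 2 or clorgyline combination replicate 1, and 1 without either rasagiline combination tumour. The ratios between genes, and their alternatives, were chosen after seeing the data. With 2 tumours per group, a lone tumour left after an omission takes its spread from the remaining groups. No paired analysis was possible because the labels give no replicate numbers. The titles carry a letter and a number, some of them shared between groups (the letter E stands in a vehicle, a clorgyline and a rasagiline title), but no source used here says what they mean, and vehicle tumours share the same number.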
